A study of Arabidopsis thaliana with 32 samples.

Results

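In Arabidopsis thaliana roots treated with zaxinone, 104 genes were listed as changed in the mutant kai2 and in the wild type Col-0, but were listed neither in d14 nor in max2. They were selected on the authors' calls of zaxinone against mock: by their gene codes in the authors' deposited tables, which hold 1 list of changed genes per genotype. They are 104 of the 3443 genes listed in at least 1 of the 4 tables. The tables list 1833 genes for kai2, 2336 for d14, 1514 for max2 and 1835 for Col-0. Of the 1138 genes listed in both kai2 and Col-0, 827 were listed in all 4 tables, 172 also in d14 but not in max2, 35 also in max2 but not in d14, and the remaining 104 in neither. Every listed gene has an adjusted p under 0.05 and lies at or beyond 1 in absolute log2 fold change. A gene missing from the d14 and max2 tables was therefore only not listed there: its values in those roots were not analysed here, and a response below the listing thresholds cannot be told apart from no response.

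Roots of 5-week-old plants in hydroponic culture received 20 µM zaxinone in 1% acetone, or 1% acetone alone as the mock treatment, and were harvested after 6 h. The groups used here were kai2 with zaxinone, kai2 with mock, Col-0 with zaxinone and Col-0 with mock, with 4 libraries each. The mutants are named in the labels by genotype only, without the allele, and the title of the series ties perception of zaxinone to D14. The labels do not say whether the libraries of a group came from separate plants, so p-values measure the spread between libraries, which may be technical.

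Zaxinone is an apocarotenoid, a small product of carotenoid cleavage. D14 is an α/β-hydrolase that binds and cleaves strigolactones and then, with the F-box protein MAX2, marks repressors of the SMXL family for degradation. KAI2 is a relative of D14 that also works with MAX2, perceives karrikins or an unknown endogenous ligand, and acts on SMAX1 and SMXL2.

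Total depth, recovered from counts and FPKM values, ranged from 42.8 to 68.8 M fragments (M, 1e6) in kai2 and from 67.6 to 101.9 M in Col-0. Neither D14 nor MAX2 appears among the listed genes, so these tables could not be used to check the d14 and max2 labels. KAI2 was listed only for kai2, with 7.21, 6.64, 5.399 and 7.15 FPKM (fragments scaled by transcript length and library total) in zaxinone libraries and 2.39, 2.06, 1.77 and 2.05 FPKM in mock libraries, so KAI2 transcript was counted in the mutant. Replicate 1 of kai2 mock stood apart in several genes. For the shoot markers listed in kai2, LHCB1.2 had 101 counts there and 2 to 12 in the other kai2 mock libraries, and RBCS2B had 25 counts there and 1 to 4 in the others. These were 2 of the 11 shoot markers matched. No other shoot marker was listed in kai2, none was listed in Col-0, and the 17 matched markers of root cell types were listed in neither table, so the root label could not be checked further.

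Most of the 104 genes were lower with zaxinone. With zaxinone 66 (63.5%) were lower in both genotypes and 36 (34.6%) were higher in both, and 2 were listed in opposite directions. Among all 1138 genes listed in kai2 and Col-0, 47.2% were lower in both and 52.6% higher in both. The share lower in both was 71.4% of the 35 genes listed also in max2 and 47.1% of the 172 listed also in d14. The 2 genes with opposite directions were the only such genes among the 1138. The authors called 7.44% of 24625 genes in kai2 (4.16% higher and 3.28% lower) and 7.33% of 25041 genes in Col-0 (3.74% higher and 3.59% lower). Since these calls chose the genes, the counts describe the selection and are not tested.

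Their changes lay mostly near the listing threshold. In the authors' deposited tables the median absolute log2 fold change of the 104 genes was 1.3 in kai2 and 1.28 in Col-0, against 1.97 in kai2 and 1.87 in Col-0 for the 827 genes listed in every genotype. Absolute changes under 1.5 made up 68.3% of the 104 in kai2 and 75.0% in Col-0, and 63 genes were under 1.5 in both. For the 827 genes those shares were 24.4% in kai2 and 26.1% in Col-0, for the 172 genes listed also in d14 they were 45.9% in kai2 and 57.0% in Col-0, and for the 35 listed also in max2 they were 48.6% in kai2 and 45.7% in Col-0. At least 2 in both genotypes was reached by 10 of the 104 genes. The median mock level was 4.28 FPKM in kai2 and 3.95 FPKM in Col-0.

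**Figure D1:**
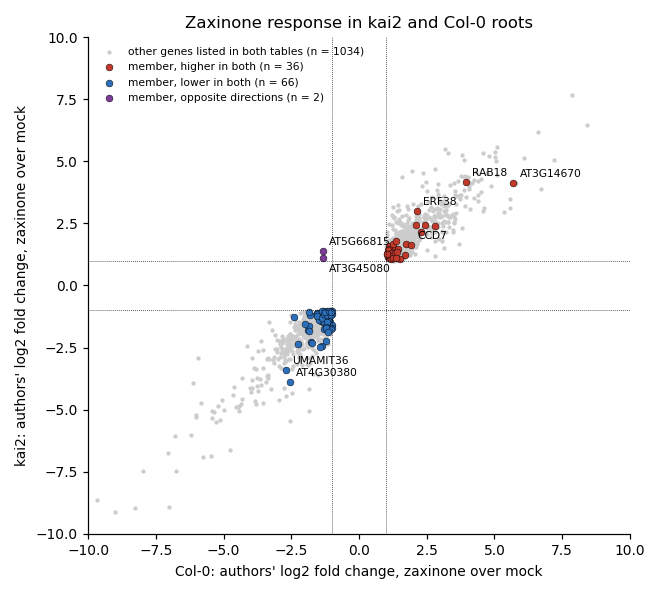
Authors' log2 fold change (zaxinone over mock) in kai2 on the vertical axis against Col-0 on the horizontal axis, for the 1138 genes listed in both tables, 1 point per gene. Dotted lines mark the listing threshold at 1 and -1. The 104 genes (coloured) lie mostly near that threshold, and AT5G66815 and AT3G45080 are the only points in the upper left corner.

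In FPKM the 4 zaxinone libraries did not overlap the 4 mock libraries for 94 of the 104 genes (90.4%) in kai2. In Col-0 this held for 97 (93.3%). Among the 1138 genes listed in both tables the shares were higher, 95.7% in kai2 and 96.3% in Col-0. They were 93.8% of all genes listed in kai2 and 91.8% of all listed in Col-0. Both genotypes were free of overlap in 89 genes, a count for which the share over all genes listed in both tables was not computed. The 104 genes lay on all 5 nuclear chromosomes, with 31 on chromosome 1, 9 on chromosome 2, 17 on chromosome 3, 19 on chromosome 4 and 28 on chromosome 5, and 93 of them code for proteins.

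**Figure D2:**
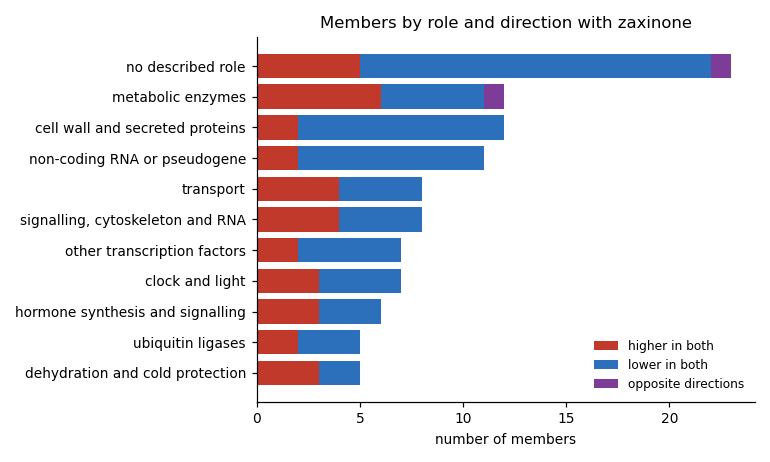
Number of genes in each role, split by their listed direction with zaxinone. The 12 cell wall and secreted proteins held 10 that were lower, and the 11 non-coding RNAs or pseudogenes held 9 that were lower. The roles were assigned from the genes' annotation.

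Hormone synthesis and signalling was represented by 6 genes, 3 higher and 3 lower. CCD7, also called MAX3, is the carotenoid cleavage dioxygenase that acts early in strigolactone synthesis, and it was the only gene of the strigolactone and karrikin pathway among the 104. CCD7 had 0.650, 0.496, 0.396 and 0.769 FPKM in kai2 zaxinone libraries, against 0.509, 0.0679, 0.106 and 0.0542 FPKM in kai2 mock libraries. In Col-0 it had 0.440, 0.242, 0.984 and 0.660 FPKM with zaxinone, against 0.170, 0.0951, 0.155 and 0.195 FPKM with mock. The Col-0 groups did not overlap, while in kai2 the mock replicate 1 lay above the 2 lowest zaxinone libraries and the other 3 mock libraries lay far below all of them. On the log2 scale edgeR gave 1.62 ± 0.59 (SE) in kai2 and 1.91 ± 0.42 in Col-0, and 2.899 in kai2 without mock replicate 1. That library also held the highest counts of both shoot markers, whose part in the result was not tested.

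The 250 bases upstream of CCD7 are shown because CCD7 links the gene set to the strigolactone pathway. They are written 5′ to 3′ from RefSeq TAIR10.1, on the plus strand at chr2:18558635-18558884, with the letters of an ABRE core (ACGTG or its reverse complement) and of an as-1 core (TGACG) in capitals.
CCD7: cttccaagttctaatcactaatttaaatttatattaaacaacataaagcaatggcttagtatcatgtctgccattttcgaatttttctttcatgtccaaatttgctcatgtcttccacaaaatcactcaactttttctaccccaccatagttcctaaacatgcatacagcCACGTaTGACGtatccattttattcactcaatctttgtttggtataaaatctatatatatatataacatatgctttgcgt
The ABRE core begins 80 bases and the as-1 core 74 bases before the annotated start. A match of letters is a description and not a binding site.

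Of the 18 pathway genes looked up, which include the receptors, MAX2, the SMXL repressors and the synthesis enzymes, the authors' deposited tables listed CCD7 and KAI2 as higher in kai2, CCD7 alone as higher in Col-0, and none in d14 or max2. In those tables CCD7 had a log2 fold change of 1.64 in kai2 and 1.92 in Col-0, and KAI2 had 1.68 in kai2. Of 12 genes known to respond to strigolactones or karrikins, HB40, a homeobox gene that acts in bud dormancy, was higher in every genotype in the authors' deposited tables, with 2.57 in kai2, 2.92 in d14, 2.14 in max2 and 3.11 in Col-0. STH7 was listed as lower in Col-0 alone, at -1.17 in the authors' deposited table.

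GA3OX2 encodes an enzyme of the last step to bioactive gibberellins and was listed as higher at very low levels. GA3OX2 had 0.0797, 0.130, 0.176 and 0.104 FPKM in kai2 zaxinone libraries, against 0.0729, 0.0141, 0 and 0 FPKM in kai2 mock libraries. Its Col-0 levels were 0.177, 0.224, 0.202 and 0.0962 FPKM with zaxinone, against 0.0375, 0.0326, 0.0609 and 0.0304 FPKM with mock. The groups did not overlap in either genotype, although kai2 mock replicate 1 came close to the lowest zaxinone library. These levels rest on 8 to 11 counts in kai2 zaxinone libraries and 0 to 6 counts in kai2 mock libraries, and the edgeR log2 value of 2.29 in kai2 became 4.26 without mock replicate 1. GA3OX2 was the only gene of the 16 gibberellin genes listed in kai2 or in Col-0.

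ACS9, an ACC synthase of ethylene synthesis, was listed as lower. ACS9 had 0.172, 0.121, 0.0488 and 0.0705 FPKM in kai2 zaxinone libraries, against 0.321, 0.187, 0.222 and 0.289 FPKM in kai2 mock libraries. In Col-0 ACS9 had 0.0300, 0.0489, 0.0342 and 0.0978 FPKM with zaxinone, against 0.145, 0.464, 0.248 and 0.217 FPKM with mock. All zaxinone libraries were below all mock libraries of their genotype. The edgeR log2 change was -1.25 ± 0.42 in kai2 and -2.38 ± 0.50 in Col-0.

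The auxin response factor ARF9 was the most abundant hormone gene of the set and its libraries lay close together. ARF9 averaged 24.1 ± 2.06 FPKM (SD, n = 4) in kai2 with zaxinone and 9.66 ± 1.01 in kai2 with mock. It averaged 25.2 ± 3.58 FPKM in Col-0 with zaxinone and 10.7 ± 0.477 in Col-0 with mock. By edgeR the log2 change of 1.33 ± 0.14 in kai2 and 1.23 ± 0.16 in Col-0 was found at closely similar mock levels. SAUR41 (AT1G16510), a small auxin-responsive protein, was listed as lower with -1.12 ± 0.21 in kai2 and -1.56 ± 0.22 in Col-0, and RAS1, a gene named for its response to abscisic acid and salt, with -1.19 ± 0.33 in kai2 and -1.05 ± 0.40 in Col-0 by edgeR.

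**Figure D3:**
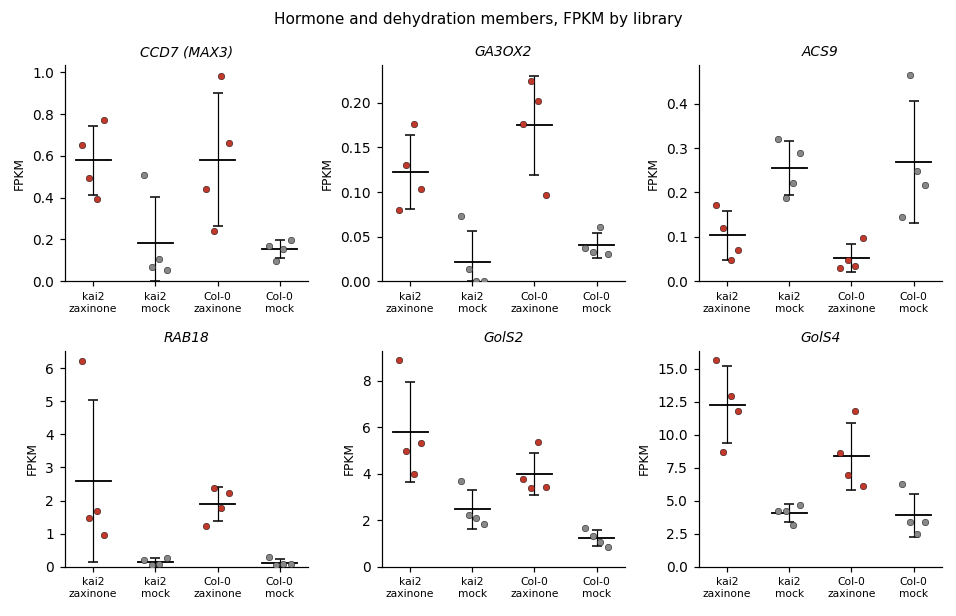
FPKM in each library for 3 hormone and 3 dehydration genes, with zaxinone libraries in red and mock libraries in grey for kai2 and Col-0. Horizontal lines are means and bars are 1 SD of 4 libraries, cut at 0. In CCD7, GA3OX2 and RAB18 most mock libraries lie below all zaxinone libraries of their genotype, and RAB18 is near 0 in mock libraries. ACS9 is the only one of the 6 genes that is lower with zaxinone.

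Dehydration and cold protection held 5 genes. RAB18, a dehydrin that is a classic target of abscisic acid, had the largest change among those with counts in mock roots. RAB18 had 6.22, 1.48, 1.67 and 0.959 FPKM in kai2 zaxinone libraries, against 0.195, 0.0378, 0.0689 and 0.275 FPKM in kai2 mock libraries. In Col-0 it had 1.24, 2.37, 1.77 and 2.23 FPKM with zaxinone, against 0.291, 0.0437, 0.0816 and 0.0679 FPKM with mock. The groups were far apart in both genotypes, with kai2 zaxinone replicate 1 and Col-0 mock replicate 1 high within their groups. The edgeR log2 change of RAB18 was 4.17 ± 0.71 in kai2 and 3.92 ± 0.50 in Col-0. It was 3.25 without kai2 zaxinone replicate 1 and 4.86 without Col-0 mock replicate 1. RAB18 was the only gene of the set among 32 genes of abscisic acid metabolism and response. Of those 32, 20 were listed as higher in kai2, 19 in d14, 18 in max2 and 18 in Col-0, and none as lower in any table.

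The upstream bases of RAB18 are shown because they hold the letters of 3 ABRE cores. They lie on the minus strand of TAIR10.1 at chr5:26519448-26519697 and are written 5′ to 3′ along the gene, with the ABRE cores and an evening element (AAATATCT or its reverse complement), a sequence bound by clock proteins, in capitals.
RAB18: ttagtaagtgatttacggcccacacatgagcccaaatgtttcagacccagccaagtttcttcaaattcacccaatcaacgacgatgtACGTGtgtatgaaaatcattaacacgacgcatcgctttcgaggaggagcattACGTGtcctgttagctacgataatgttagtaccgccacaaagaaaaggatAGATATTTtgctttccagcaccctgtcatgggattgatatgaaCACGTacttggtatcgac
The 3 ABRE cores begin 163, 111 and 18 bases before the annotated start, and the evening element 61 bases before it.

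GolS2 and GolS4 encode galactinol synthases, which make the precursor of raffinose-type protective sugars, and both were listed as higher. GolS2 averaged 5.80 ± 2.14 FPKM in kai2 with zaxinone and 2.46 ± 0.834 in kai2 with mock, and 3.99 ± 0.922 in Col-0 with zaxinone and 1.22 ± 0.344 in Col-0 with mock (SD, n = 4). GolS4 had 15.7, 8.69, 12.9 and 11.8 FPKM in kai2 zaxinone libraries, against 4.25, 4.198, 3.12 and 4.68 FPKM in kai2 mock libraries. In Col-0 GolS4 had 8.63, 6.92, 11.8 and 6.11 FPKM with zaxinone, against 6.24, 3.43, 2.51 and 3.39 FPKM with mock, and the groups overlapped through mock replicate 1.

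The remaining genes of that role were lower. CDSP32, a plastid thioredoxin-like protein induced by drought, had 1.46, 1.44, 1.74 and 1.47 FPKM in kai2 zaxinone libraries, against 4.87, 4.63, 3.66 and 5.42 FPKM in kai2 mock libraries. In Col-0 CDSP32 had 3.12, 3.98, 3.86 and 3.99 FPKM with zaxinone, against 8.09, 6.26, 7.50 and 7.95 FPKM with mock. The groups were apart in each genotype, at lower levels in kai2 than in Col-0 under both treatments. AT4G15430, of the ERD family (early responsive to dehydration), averaged 1.46 ± 0.108 FPKM in kai2 with zaxinone and 2.95 ± 0.495 in kai2 with mock, and 2.21 ± 0.263 in Col-0 with zaxinone and 4.42 ± 0.316 in Col-0 with mock.

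Clock and light genes numbered 7, of which 3 were higher and 4 lower. COR27, an evening gene that links the clock to cold and light signals, had 49.8, 29.4, 34.0 and 30.2 FPKM in kai2 zaxinone libraries, against 16.4, 17.41, 16.8 and 15.6 FPKM in kai2 mock libraries. In Col-0 COR27 had 13.1, 14.5, 17.1 and 15.4 FPKM with zaxinone, against 5.35, 6.49, 5.73 and 5.49 FPKM with mock. The level of COR27 in kai2 mock roots was within the range seen in Col-0 with zaxinone or just above it. JMJD5, also called JMJ30, a jumonji-domain demethylase that oscillates with the clock, had 22.6, 19.6, 21.8 and 24.6 FPKM in kai2 zaxinone libraries, against 7.06, 8.81, 10.6 and 5.87 FPKM in kai2 mock libraries. In Col-0 JMJD5 had 6.58, 9.20, 11.3 and 8.67 FPKM with zaxinone, against 3.02, 3.75, 3.19 and 3.05 FPKM with mock. As for COR27, the kai2 mock and Col-0 zaxinone libraries covered much the same range. CIB3 (AT3G07340), a basic helix-loop-helix protein that interacts with the blue-light receptor CRY2, averaged 12.9 ± 1.26 FPKM in kai2 with zaxinone and 4.02 ± 0.594 in kai2 with mock, and 8.64 ± 0.636 in Col-0 with zaxinone and 3.57 ± 0.501 in Col-0 with mock.

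The evening element (AAATATCT, searched on both strands of the 250 upstream bases) was added to the motifs after the clock genes had been seen in the set, and it stood in 6.45% of the 93 promoters of the set that could be read and in 4.79% of all 27443 promoters.

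LNK4 (AT5G06980), of a family that works with clock transcription factors, was listed as lower. LNK4 (AT5G06980) had 6.06, 2.33, 2.44 and 2.94 FPKM in kai2 zaxinone libraries, against 18.24, 20.4, 15.8 and 23.6 FPKM in kai2 mock libraries. In Col-0 it had 12.1, 10.5, 13.6 and 13.3 FPKM with zaxinone, against 31.1, 30.1, 36.2 and 35.8 FPKM with mock, so that no groups overlapped. RUP1, a repressor of the UV-B receptor UVR8, averaged 2.204 ± 1.33 FPKM in kai2 with zaxinone and 7.32 ± 2.38 in kai2 with mock, and 2.12 ± 0.528 in Col-0 with zaxinone and 4.93 ± 1.05 in Col-0 with mock. FD, the bZIP partner of the flowering signal FT, averaged 3.92 ± 0.180 FPKM in kai2 with zaxinone and 10.2 ± 0.591 in kai2 with mock, and 4.50 ± 0.501 in Col-0 with zaxinone and 9.80 ± 1.42 in Col-0 with mock. ULI3, a gene of UV-B signalling, was lower with a log2 change of -1.06 ± 0.19 in kai2 and -1.26 ± 0.24 in Col-0 by edgeR.

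Of 12 core clock genes none was in the set, and in the authors' deposited tables ELF4 was listed as higher in all genotypes, with 1.56 in kai2, 1.09 in d14, 1.12 in max2 and 1.41 in Col-0. CCA1 and LHY were listed as lower in kai2, at -1.21 and -1.29, and in max2, at -1.19 and -1.35, and PRR9 as lower in kai2 alone, at -2.46, in the authors' deposited tables. The labels give no hour of the day for the harvest, so that genotype and harvest time cannot be told apart.

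**Figure D4:**
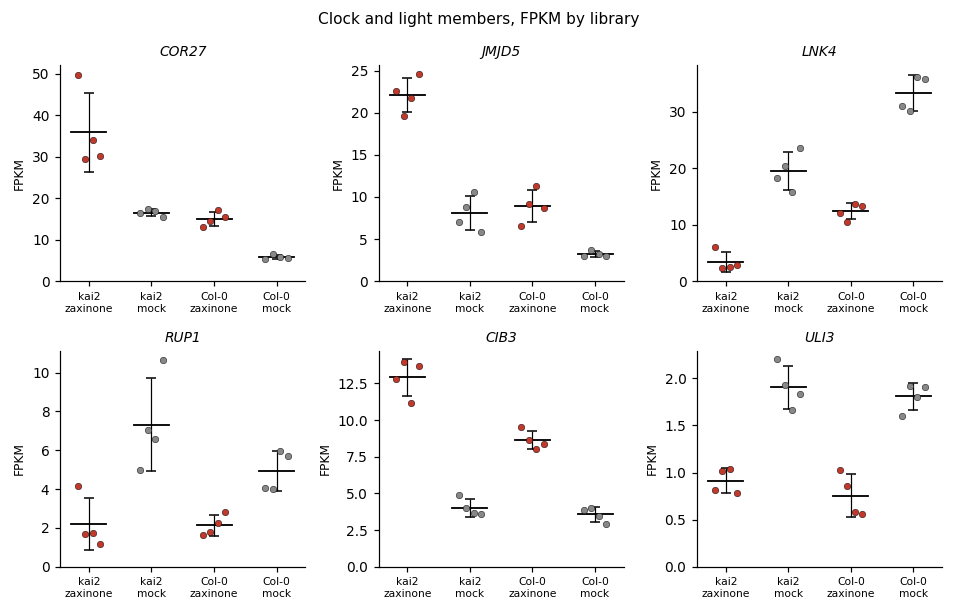
FPKM in each library for 6 clock and light genes, with zaxinone libraries in red and mock libraries in grey for kai2 and Col-0. Horizontal lines are means and bars are 1 SD of 4 libraries, cut at 0. The kai2 mock libraries of COR27 (15.6 to 17.41 FPKM) lie at the level of the Col-0 zaxinone libraries (13.1 to 17.1 FPKM).

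Other transcription factors numbered 7, with 2 higher and 5 lower. ERF38, of the AP2/ERF family, had 0.449, 0.267, 0.240 and 0.312 FPKM in kai2 zaxinone libraries, against 0.109, 0, 0.0193 and 0.0237 FPKM in kai2 mock libraries. In Col-0 ERF38 had 0.277, 0.301, 0.202 and 0.491 FPKM with zaxinone, against 0.0563, 0.0857, 0.0262 and 0.122 FPKM with mock. All zaxinone libraries were above all mock libraries, and the kai2 log2 value of 2.93 became 4.29 without mock replicate 1. NAC080 averaged 53.0 ± 12.6 FPKM in kai2 with zaxinone and 22.2 ± 1.98 in kai2 with mock, and 28.2 ± 1.91 in Col-0 with zaxinone and 13.5 ± 1.57 in Col-0 with mock.

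NLP3 (AT4G38340), of the NIN-like family that includes nitrate-responsive regulators, was listed as lower. AT4G38340 had 5.05, 4.91, 4.28 and 4.84 FPKM in kai2 zaxinone libraries, against 14.2, 17.56, 19.5 and 16.6 FPKM in kai2 mock libraries. In Col-0 AT4G38340 had 7.10, 5.71, 4.83 and 5.04 FPKM with zaxinone, against 16.9, 21.0, 22.1 and 21.6 FPKM with mock. The groups lay far apart, with an edgeR log2 change of -1.83 ± 0.15 in kai2 and -1.85 ± 0.18 in Col-0. MYB60, known as a regulator of stomatal guard cells, was near the limit of detection, with 0.0110, 0.0787, 0.0532 and 0.0640 FPKM in kai2 zaxinone libraries, against 0.350, 0.141, 0.157 and 0.332 FPKM in kai2 mock libraries. In Col-0 MYB60 had 0.0490, 0.0355, 0.00745 and 0.0639 FPKM with zaxinone, against 0.0748, 0.162, 0.174 and 0.101 FPKM with mock. Its groups did not overlap either. WRKY30, of a family that acts in defence, changed by -1.75 ± 0.30 in kai2 and -1.30 ± 0.30 in Col-0 (log2, edgeR).

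Transport genes numbered 8, with 4 higher and 4 lower. UMAMIT36, of a family of amino acid exporters, was the most strongly lowered of the set in Col-0. UMAMIT36 had 0.0879, 0.188, 0.0706 and 0.102 FPKM in kai2 zaxinone libraries, against 2.198, 0.835, 1.25 and 0.543 FPKM in kai2 mock libraries. In Col-0 UMAMIT36 had 0.325, 0.163, 0.196 and 0.102 FPKM with zaxinone, against 1.53, 1.78, 1.29 and 0.519 FPKM with mock. No zaxinone library reached the lowest mock library, and edgeR gave a log2 change of -3.40 ± 0.48 in kai2 and -2.69 ± 0.43 in Col-0.

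The sugar transporter SWEET1 was listed as higher at low levels. SWEET1 had 0.344, 0.198, 0.107 and 0.232 FPKM in kai2 zaxinone libraries, against 0.0542, 0.110, 0.1003 and 0.0176 FPKM in kai2 mock libraries, and these overlapped at a single library of each group. In Col-0 SWEET1 had 0.247, 0.259, 0.413 and 0.247 FPKM with zaxinone, against 0.0669, 0.127, 0.0971 and 0.0566 FPKM with mock, without overlap. Also higher were the phloem potassium channel AKT2 (KT2/3), with a log2 change of 1.79 ± 0.30 in kai2 and 1.35 ± 0.35 in Col-0, and the phloem nitrate transporter NRT1.7, with 1.21 ± 0.31 in kai2 and 1.11 ± 0.34 in Col-0. FRD3, which releases citrate into the xylem and so keeps iron mobile, changed by 1.199 ± 0.27 in kai2 and 1.14 ± 0.21 in Col-0 (log2, edgeR).

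Of 12 cell wall and secreted proteins 10 were lower. AT4G30380, annotated as a Barwin-related endoglucanase, had 0.0541, 0.193, 0.0435 and 0.188 FPKM in kai2 zaxinone libraries, against 5.77, 0.768, 0.0698 and 0.601 FPKM in kai2 mock libraries. In Col-0 AT4G30380 had 0.160, 0.218, 0.128 and 0.157 FPKM with zaxinone, against 1.43, 1.55, 0.449 and 0.386 FPKM with mock. The kai2 groups overlapped through mock replicate 3, and mock replicate 1 was many times the rest. Without kai2 mock replicate 1 the log2 change of AT4G30380 in kai2 was -1.91, against -3.85 with it. AT4G07820, a secreted protein of the PR-1 type (CAP superfamily), was among the most abundant of the set, with 557.9, 604.8, 332.4 and 321.3 FPKM in kai2 zaxinone libraries, against 1308, 886.1, 862.3 and 1134 FPKM in kai2 mock libraries. In Col-0 AT4G07820 had 304.0, 321.4, 238.7 and 358.3 FPKM with zaxinone, against 898.0, 1253, 1046 and 1055 FPKM with mock.

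Among the other secreted proteins, the polygalacturonase PGAZAT (ADPG2), which loosens walls at organ shedding, changed by -1.47 ± 0.34 in kai2 and -1.32 ± 0.31 in Col-0 on the log2 scale. The germin-like protein GER1 changed by -1.47 ± 0.39 in kai2 and -1.06 ± 0.35 in Col-0, the peroxidase AT5G64110 by -1.86 ± 0.40 in kai2 and -1.15 ± 0.31 in Col-0, and the chitinase-family gene AT2G43620 by -1.74 ± 0.45 in kai2 (-1.03 without kai2 mock replicate 4) and -1.03 ± 0.23 in Col-0. The glycine-rich gene AT2G05530 changed by -1.70 ± 0.36 in kai2 and -1.01 ± 0.35 in Col-0, with 4.34, 2.59, 2.19 and 1.26 FPKM in kai2 zaxinone libraries, against 12.5, 7.05, 6.39 and 8.17 FPKM in kai2 mock libraries. In Col-0 AT2G05530 had 2.33, 3.49, 4.83 and 5.96 FPKM with zaxinone, against 6.31, 4.33, 10.6 and 12.0 FPKM with mock, and these overlapped. The 2 secreted proteins listed as higher were the cupin AT5G39120, with 1.099 ± 0.28 in kai2 and 1.27 ± 0.21 in Col-0, and the serine carboxypeptidase AT5G22860, with 1.37 ± 0.24 in kai2 and 1.41 ± 0.28 in Col-0 (log2, edgeR).

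Metabolic enzymes numbered 12, with 6 higher, 5 lower and 1 in opposite directions. TPX2 (AT1G65970), a thioredoxin-dependent peroxidase that removes hydrogen peroxide, had the highest FPKM of the set. TPX2 had 732.7, 410.9, 334.7 and 300.3 FPKM in kai2 zaxinone libraries, against 1185, 1293, 1196 and 1936 FPKM in kai2 mock libraries. In Col-0 TPX2 had 403.2, 315.3, 333.3 and 441.7 FPKM with zaxinone, against 1185, 1391, 1451 and 1360 FPKM with mock. Its zaxinone libraries lay well below its mock libraries in both genotypes. TPX2 has a closely related neighbour, thioredoxin-dependent peroxidase 1, and how reads shared between them were counted is not given in the sources used here. TPX2 also overlaps, by 201 bases on the other strand, AT1G08803, which the authors' deposited tables list as lower in kai2 (-1.74), max2 (-1.19) and Col-0 (-2.13).

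The other enzymes included the sesquiterpene synthase TPS12, with a log2 change of 1.05 ± 0.24 in kai2 and 1.52 ± 0.28 in Col-0, and the acyltransferase GPAT3, with 1.41 ± 0.22 in kai2 and 1.05 ± 0.21 in Col-0. The nucleoside hydrolase NSH3 changed by 1.28 ± 0.14 in kai2 and 1.04 ± 0.16 in Col-0, and the glucosyltransferase UGT75B2 by 1.48 ± 0.30 in kai2 and 1.12 ± 0.25 in Col-0. Lower were the cytochrome P450 CYP71A27, with -1.03 ± 0.26 in kai2 and -1.32 ± 0.32 in Col-0, and the 2-oxoglutarate-dependent oxygenase AT1G12010, with -1.18 ± 0.26 in kai2 and -1.14 ± 0.15 in Col-0 (log2, edgeR).

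Of 5 ubiquitin ligases, RING1, a RING-type ligase, and AT2G45920, of the U-box type, were higher, while ATL15, AT4G40070 and the F-box gene AT4G22170 were lower. RING1 changed by 1.19 ± 0.28 in kai2 and by 1.19 ± 0.25 in Col-0, and ATL15 by -1.21 ± 0.12 in kai2 and -1.34 ± 0.18 in Col-0 on the log2 scale. AT4G22170 had 0.0561, 0.0533, 0.108 and 0.104 FPKM in kai2 zaxinone libraries, against 0.205, 0.763, 0.362 and 0.249 FPKM in kai2 mock libraries. In Col-0 AT4G22170 had 0.0581, 0.0721, 0.0757 and 0.0866 FPKM with zaxinone, against 0.143, 0.266, 0.313 and 0.240 FPKM with mock, so that no groups overlapped.

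Signalling, cytoskeleton and RNA genes numbered 8, with 4 higher and 4 lower. AT5G42610, annotated as a calcium uniporter, had 0.194, 0.215, 0.758 and 0.515 FPKM in kai2 zaxinone libraries, against 0.0169, 0.157, 0.0716 and 0.132 FPKM in kai2 mock libraries. In Col-0 AT5G42610 had 0.616, 0.190, 0.750 and 0.362 FPKM with zaxinone, against 0.136, 0.170, 0.0243 and 0.0565 FPKM with mock. The groups were apart, though narrowly so at the lowest zaxinone libraries. Others were MDP40, which destabilises microtubules, with 1.24 ± 0.17 in kai2 and 1.11 ± 0.19 in Col-0, and CAF1a, a subunit of the complex that shortens poly(A) tails, with -1.01 ± 0.18 in kai2 and -1.20 ± 0.19 in Col-0 (log2, edgeR).

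A role could not be assigned to 23 genes, of which 17 were lower, 5 higher and 1 opposite. AT3G14670, a hypothetical protein, had 4, 6, 1 and 4 counts in kai2 zaxinone libraries and 18, 11, 6 and 7 counts in Col-0 zaxinone libraries, and 0 counts in all mock libraries of both genotypes. Against a floor of 3 counts per mock library, the mean normalized count of AT3G14670 with zaxinone was 3.33 times the floor in Col-0 and 1.12 times in kai2. The counting error of the zaxinone libraries is not included, so these ratios are not firm lower bounds, least of all in kai2. AT3G57460, annotated as a metallopeptidase, had 0.202, 0.0572, 0.340 and 0.257 FPKM in kai2 zaxinone libraries, against 0.0117, 0.0409, 0.0497 and 0.0610 FPKM in kai2 mock libraries. In Col-0 AT3G57460 had 0.391, 0.124, 0.585 and 0.121 FPKM with zaxinone, against 0.00724, 0.0551, 0.0757 and 0.0392 FPKM with mock. These groups overlapped in kai2 by 1 library on each side. AT1G20290, annotated as chromatin-binding, had 0.531, 0.301, 0.203 and 0.161 FPKM in kai2 zaxinone libraries, against 1.22, 0.951, 0.979 and 1.12 FPKM in kai2 mock libraries. In Col-0 AT1G20290 had 0.131, 0.142, 0.0940 and 0.0366 FPKM with zaxinone, against 0.200, 0.228, 0.630 and 0.451 FPKM with mock, without overlap in either genotype.

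Non-coding RNAs and 1 pseudogene made up 11 of the 104, with 9 lower and 2 higher. Of all 104 genes, 22 overlap an annotated gene on the other strand, and 10 of these have at least 50% of their span inside it. The labels' protocol describes directional and non-directional preparation without saying which was used, so reads of such genes and of their partners cannot be told apart. The lncRNA AT1G05753 lies wholly within ATL15, on the other strand, and both are in the set: AT1G05753 changed by -1.45 ± 0.20 in kai2 and -1.40 ± 0.23 in Col-0. U6.9p, a small nuclear RNA gene of 53 bases, lies wholly within MSL4, a mechanosensitive channel gene on the other strand, and the authors' deposited tables list MSL4 as higher in kai2 (1.91), d14 (2.04), max2 (1.84) and Col-0 (1.90). U6.9p itself had 9, 9, 2 and 11 counts in kai2 zaxinone libraries, against 2, 0, 2 and 1 counts in kai2 mock libraries. In Col-0 U6.9p had 12, 15, 22 and 5 counts with zaxinone, against 3, 3, 2 and 1 counts with mock.

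The lncRNA AT4G05775 overlaps AT4G10270 on the other strand over 377 bases, which is 86.3% of its span. AT4G05775 had 5, 2, 4 and 1 counts in kai2 zaxinone libraries, against 43, 3, 8 and 5 counts in kai2 mock libraries. In Col-0 AT4G05775 had 6, 4, 10 and 8 counts with zaxinone, against 83, 20, 15 and 11 counts with mock. Replicate 1 of the mock group was the highest in each genotype, and the kai2 groups overlapped. Without mock replicate 1 the log2 change of AT4G05775 was -1.02 in kai2, against -2.34 with it, and -1.3 in Col-0, against -2.23 with it (edgeR). AT4G10270 was listed in the authors' deposited tables for d14 (-1.77), max2 (1.77) and Col-0 (-3.32), and not for kai2. The lncRNA AT1G08477, with 1.54 ± 0.30 in kai2 and 1.27 ± 0.28 in Col-0, lies wholly within the sulfate assimilation gene APR2, which was listed as higher in kai2 alone (1.298 in the authors' deposited table). The glycosyltransferase gene AT3G46650 shares 1507 bases with the clock gene LUX (PCL1), which no table listed.

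The 2 genes with opposite directions were AT3G45080, a gene of the P-loop hydrolase superfamily, and AT5G66815, a transmembrane protein without a described role. AT3G45080 had 0.531, 0.416, 0.446 and 0.517 FPKM in kai2 zaxinone libraries, against 0.368, 0.239, 0.109 and 0.172 FPKM in kai2 mock libraries. In Col-0 AT3G45080 had 0.366, 0.456, 0.0978 and 0.151 FPKM with zaxinone, against 0.708, 0.474, 0.706 and 0.835 FPKM with mock. All kai2 zaxinone libraries were above the kai2 mock libraries, and all Col-0 zaxinone libraries were below the Col-0 mock libraries. AT5G66815 had 0.569, 0.867, 1.24 and 2.09 FPKM in kai2 zaxinone libraries, against 0.694, 0.194, 0.735 and 0.181 FPKM in kai2 mock libraries. In Col-0 AT5G66815 had 0.556, 0.458, 0.215 and 0.352 FPKM with zaxinone, against 1.29, 1.57, 0.498 and 0.649 FPKM with mock. The groups of AT5G66815 overlapped in both genotypes.

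Whether the response differed between kai2 and Col-0 was tested as the genotype by treatment term over all 1138 genes listed in both tables. Listing in both tables limits how large this difference can be. By edgeR's quasi-likelihood test with Benjamini-Hochberg adjustment, 0 of the 104 genes and 0 of the 1138 (0.0%) passed an adjusted p of 0.05. An unadjusted p under 0.05 was reached by 5 of the 104 and by 97 of the 1138 (8.52%), and DESeq2 called 2 of the 104 and 18 of the 1138 while limma-voom called 0 and 2. The median absolute difference was 0.19 on the log2 scale over the 104 genes, with a median SE of 0.37, and 0.30 over all 1138. The absolute difference was under 0.5 in 81.7% of the 104 and in 72.8% of all. By the authors' values 63 of the 104 lay under 1.5 in both genotypes, where genes changing in the same direction cannot differ by 0.5. The smaller differences of the set are thus in part fixed by the listing, and do not show that its responses are more alike.

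The genes listed in opposite directions must differ by over 2 because of the listing itself, so their difference is a description: kai2 minus Col-0 was 2.43 ± 0.61 for AT3G45080 and 2.71 ± 0.73 for AT5G66815 (log2, edgeR), and they were the 2 genes that DESeq2 called. For LNK4 (AT5G06980) the difference was -1.08 ± 0.33 (edgeR adjusted p = 0.251), where the zaxinone change was -2.49 ± 0.30 in kai2 and -1.43 ± 0.16 in Col-0. For JMJD5 the difference was 0.00 ± 0.26, since its change was 1.46 ± 0.19 in kai2 and 1.45 ± 0.19 in Col-0. ACS9 differed by 1.12 ± 0.67 and GA3OX2 by 0.21 ± 0.84, so these responses are shown neither to differ nor to be alike.

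Untreated levels were compared next. The mock libraries also entered the contrasts that chose the genes, so these tests are not independent of the selection. Between kai2 mock and Col-0 mock libraries, edgeR called 18 of the 104 genes at an adjusted p of 0.05, 11 higher and 7 lower in kai2, against 12.6% of the 1138 genes (113 or 9.93% higher and 30 or 2.64% lower). An unadjusted p under 0.05 was reached by 33 of the 104 and by 311 of the 1138 (27.3%). The counts of both tables were put on 1 scale by the total fragments of each library, since the authors normalized each table apart. Scaled by TMM over the same genes, which moved the median of all genes by -0.17, the calls were 8 higher and 8 lower among the 104 and 63 higher and 57 lower among all. With DESeq2 size factors, which moved it by -0.16, they were 8 higher and 7 lower among the 104 and 51 higher and 47 lower among all. Fewer cells of a type and less RNA per cell cannot be told apart in such bulk samples. Genotype and any separate handling of each genotype's libraries cannot be told apart either. Without Col-0 mock replicate 1 the calls were 8 of the 104, without Col-0 mock replicate 4 they were 10, without kai2 mock replicate 1 they were 9 and without kai2 mock replicate 2 they were 11. Calls among all 1138 genes moved too, ranging from 49 to 157 with 1 library left out, against 143 with all libraries.

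COR27 and JMJD5 had the smallest p of the set in this comparison. Of the 7 clock and light genes 3 were called, against 18 of the 104 and 12.6% of the 1138, and CIB3, FD, RUP1 and ULI3 were not. COR27 averaged 16.6 ± 0.779 FPKM in kai2 mock and 5.77 ± 0.510 in Col-0 mock roots (SD, n = 4 libraries), a log2 difference of 1.52 ± 0.17 (edgeR adjusted p = 3.06e-05). JMJD5 averaged 8.08 ± 2.05 FPKM in kai2 mock and 3.25 ± 0.340 in Col-0 mock, a log2 difference of 1.31 ± 0.19 (edgeR adjusted p = 0.000299). LNK4 (AT5G06980) went the other way, with 19.5 ± 3.29 FPKM in kai2 mock and 33.3 ± 3.16 in Col-0 mock, a log2 difference of -0.77 ± 0.24 (edgeR adjusted p = 0.0367). The kai2 mock libraries of each of these genes lay wholly above or wholly below the Col-0 mock libraries.

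AT5G25260, a membrane protein of the SPFH type, averaged 10.3 ± 1.46 FPKM in kai2 mock and 4.01 ± 1.21 in Col-0 mock, a log2 difference of 1.36 ± 0.24 (edgeR adjusted p = 0.00157). It was lower with zaxinone, with 3.67 ± 0.554 FPKM in kai2 zaxinone and 1.79 ± 0.561 in Col-0 zaxinone roots. AT4G32870, of the polyketide cyclase and lipid transport superfamily, averaged 146.5 ± 13.5 FPKM in kai2 mock and 89.9 ± 8.79 in Col-0 mock, a log2 difference of 0.71 ± 0.15 (edgeR adjusted p = 0.00681). NAC080 was higher in kai2 mock by 0.71 ± 0.16 (edgeR adjusted p = 0.00944). AT1G19960, annotated as a transcription factor, averaged 5.84 ± 0.554 FPKM in kai2 mock and 10.96 ± 3.05 in Col-0 mock, a log2 difference of -0.91 ± 0.21 (edgeR adjusted p = 0.0116).

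The 18 genes called between mocks included both directions of the zaxinone response. Of the genes higher with zaxinone, 4 were higher in kai2 mock (COR27, JMJD5, NAC080 and GolS2) and 1, UGT75B2, was lower. Of the genes lower with zaxinone, 7 were higher in kai2 mock and 5 were lower, among them CDSP32 with a log2 difference of -0.68 ± 0.17 (edgeR adjusted p = 0.0154). The remaining call was AT3G45080, lower in kai2 mock by a log2 difference of -1.60 ± 0.44 (edgeR), with 0.222 ± 0.111 FPKM in kai2 mock and 0.681 ± 0.151 in Col-0 mock. Its listing in opposite directions used the same mock libraries and favours a low kai2 mock and a high Col-0 mock level. Its difference is therefore a description.

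**Figure D5:**
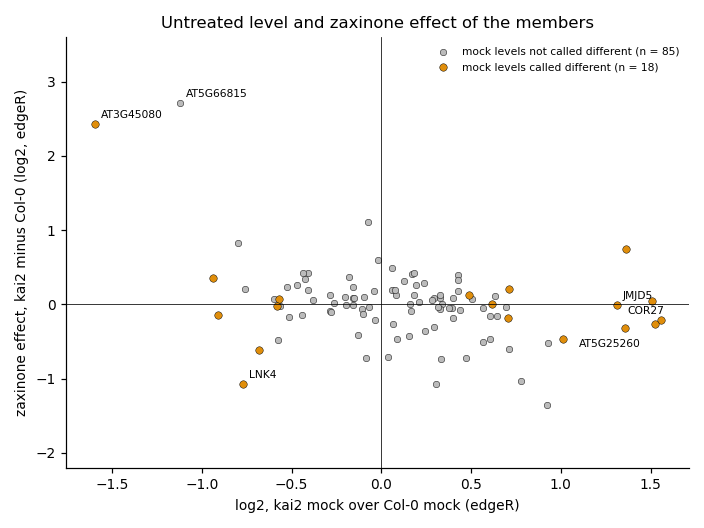
Difference of the zaxinone effect (kai2 minus Col-0, log2) on the vertical axis against the untreated level (kai2 mock over Col-0 mock, log2) on the horizontal axis, both from edgeR, 1 point per gene without AT3G14670, which had no counts in mock libraries. Orange points are the 18 genes whose mock levels were called different. COR27 and JMJD5 lie at the right near a difference of 0, and the 2 genes with opposite directions lie at the upper left. Both axes use the same mock libraries, so their relation is not a result.

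Of 21 gene lists looked up, 4 held 1 gene of the set each, namely the strigolactone, abscisic acid, ethylene and gibberellin lists, and 17 held none. Among those without a gene of the set was xenobiotic detoxification, with 22 of 29 matched genes listed as higher in kai2, 28 in d14, 26 in max2 and 25 in Col-0. Endodermis and suberin was another, with 11 of 23 genes listed as higher in kai2, 13 in d14, 10 in max2 and 10 in Col-0. In promoters the ABRE core (ACGTG) stood in 25.8% of 93 promoters of the set and 22.9% of all 27443, the G-box (CACGTG, which contains it) in 4.30% and 6.49%, the as-1 core (TGACG) in 16.1% and 18.6%, and the dehydration element (CCGAC) in 8.60% and 12.0%. The W-box core (TTGAC) stood in 53.8% and 44.9%, and the letters ATAACAA, reported to be bound by SMXL6, in 10.8% and 11.6%. Both strands of 250 bases were searched, and no test was made.

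At the edge of the selection, CDSP32 (kai2 -1.60, Col-0 -1.002), AT4G15430 (kai2 -1.01, Col-0 -1.01) and AT2G05530 (kai2 -1.70, Col-0 -1.01) were just inside it by the authors' deposited tables. Just outside were AT1G11185 and AT5G59990, listed in d14 at -1.02, and AT5G17700, listed in d14 at 1.02. Listing in max2 kept out AT1G51300 and AT1G72416, both at -1.01, and PIRL8, also at -1.01, in the authors' deposited table. The same rule with the mutants exchanged gave 145 genes listed in d14 and Col-0 but not in kai2 or max2, which is 11.2% of the 1290 listed in both, and 41 listed in max2 and Col-0 but not in kai2 or d14, which is 3.91% of 1049. The 104 genes are 9.14% of their 1138.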

How the data were processed

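RNA-seq tables of zaxinone against mock were deposited for each of 4 genotypes (32 libraries, 8 groups of 4). The authors' deposited tables hold raw counts, normalized counts (a signal: counts divided by 1 factor per library), FPKM, log2 fold changes and p-values (raw and adjusted) for each listed gene, per the file headers. The submitters' processing notes name HISAT2 and StringTie. Genome build, annotation, counting tool and its strand setting: not given in the sources used here. Gene lengths implied by counts and FPKM equalled RefSeq TAIR10.1 exon lengths within 0.1% in 58928 of 58928 values, so upstream bases were read from that build. The deposited normalized column of Col-0 zaxinone replicate 2 is constant, and its factor was taken from the authors' mean.

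Sizes with SE came from edgeR 4.0.16 in R 4.3.3 on the counts of each table, without a p-value, since the same contrast chose the genes. The genotype by treatment term and mock against mock were tested by edgeR's quasi-likelihood test on 16 libraries over 1138 genes, with total fragments as library scale. Alternatives used DESeq2 1.42.0, limma 3.58.1 (voom), TMM, filters, a replicate block and each library left out. The test of the genotype by treatment term was tried on simulated data, in which 100 of the 1138 genes differed by 1 and 100 by 2. The simulated spread followed the trend over all genes and not that of each gene. There edgeR called, in the right direction, 44% of simulated differences of 1 on the log2 scale and 86% of those of 2. It also called 7 of 938 genes without a simulated difference. A difference of 1 could therefore often be missed. In the real data edgeR called neither AT3G45080 nor AT5G66815, whose differences were over 2. The recovered shares depend on the simulated settings and may be too high for the real data. Values in every library are given for genes on a list and for opposite directions. They are also given for the 8 genes higher and the 8 lower with the largest smaller fold of both tables. For the 6 smallest p of mock against mock and the 3 nearest the threshold, values in every library or means with SD are given. Others were chosen after their values were seen. The genes, lists and rule were chosen with earlier results of these data known. Replicates differed by chi-square values of 15.2 to 234 per degree of freedom and were kept apart. Floors cover the counting error of the mock counts only.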

Additional observations from a re-analysis of the deposited data

Results flagged for a closer look

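Within single groups of 4 libraries, 10 of 116 groups of named genes held a library far from the other 3 (Dixon's test at its 95% critical value), where chance flags about 1 in 20. The 116 include groups without any spread, such as the mock groups of AT3G14670, which could not be tested. Replicate 1 of kai2 mock was high in CCD7 (0.509 FPKM, others 0.0542 to 0.106), in AT4G30380 (5.77 FPKM, others 0.0698 to 0.768) and in the lncRNA AT4G05775 (1.74 FPKM, others 0.141 to 0.343). Replicate 1 of Col-0 mock was high in AT4G05775 too (2.08 FPKM, others 0.372 to 0.544) and in RAB18 (0.291 FPKM, others 0.0437 to 0.0816). RAB18 was also high in kai2 zaxinone replicate 1 (6.22 FPKM, others 0.959 to 1.67).

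SWEET1 was high in Col-0 zaxinone replicate 3 (0.413 FPKM, others 0.247 to 0.259), and TPX2 (AT1G65970) was high in kai2 mock replicate 4 (1936 FPKM, others 1185 to 1293). CDSP32 (AT1G76080) was high in kai2 zaxinone replicate 3 (1.74 FPKM, others 1.44 to 1.47) and low in Col-0 zaxinone replicate 1 (3.12 FPKM, others 3.86 to 3.99).

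The zaxinone effect, kai2 minus Col-0, was 2.44 ± 0.63 in AT3G45080 and 2.73 ± 0.75 in AT5G66815 (log2, DESeq2). Both genes were listed in opposite directions in the 2 tables, which fixes a difference of this kind, so the values restate the listing and are given without a test.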

How the results depend on the processing

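The 29 named genes gave 58 values of the zaxinone change, and all 859 alternative values kept the direction, while 26 moved by more than 1 SD between replicates. With 1 library left out, all 104 genes kept their direction. Changes moved by over 1.5 times in 6 genes without kai2 mock replicate 1 (CCD7, GA3OX2, ERF38, AT4G30380, AT4G05775 and AT5G00425), in 2 without kai2 mock replicate 4 (AT2G43620 and AT3G00390), in 1 without kai2 zaxinone replicate 1 (RAB18), in 2 without Col-0 mock replicate 1 (RAB18 and AT4G05775) and in 1 without Col-0 zaxinone replicate 2 (AT5G26080). AT5G00425 became -1.41 in kai2, against -2.40 with all libraries, AT3G00390 became -0.64 in kai2, against -1.37, and AT5G26080 became -2.42 in Col-0, against -1.83. A threshold of 1.5 in both tables left 18 of the 104 genes. TMM over the listed genes, a scaling made for sets in which most genes stay level, moved the kai2 median of all listed genes by -0.61, and the kai2 medians of the set became 0.72 for higher and -1.88 for lower genes, against 1.35 and -1.26. For the genotype by treatment term, calls among the 104 genes were 2 by DESeq2 and 1 with DESeq2 size factors, and among all 1138 they were 18 by DESeq2, 2 by limma-voom, 2 with TMM and 7 with size factors; with 1 library left out they ranged from 0 to 1 and from 0 to 9. For mock against mock, an adjusted p of 0.01 left 5 of the 104 and 28 of all, and with 1 library left out the calls ranged from 8 to 20 and from 49 to 157. The causes were not tested. Correlations of same-numbered libraries ran from -0.24 to 0.057 in kai2 (0 of 4 over 0.1), from 0.0068 to 0.22 in Col-0 (2 of 4) and from -0.0070 to 0.24 between the mock libraries of kai2 and Col-0 (3 of 4). Not every pair was over 0.1 in any of these, so the numbers were not taken as pairing. The fit with the replicate block called 0 of the 104 and 0 of all 1138 in the genotype by treatment term. In mock against mock it called 17 of the 104, and 106 higher and 26 lower among all 1138. Depth limits genes such as GA3OX2, MYB60 and AT3G14670, which rest on few counts.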
